A study of Mus musculus with 6 samples.

Results

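Pattern recognition receptors and inflammasome genes are the part of the innate immune system that detects microbial and damage-derived molecules, and 37 such genes are described here in mouse skin. They were chosen by symbol from a list, and all 37 were found among the 35434 gene symbols of the deposited expression table. The skin was lesional tissue from mice described as psoriasis mice, to which regulatory T cells (Tregs), T cells that restrain immune responses, had been transferred. One group is labelled Lenv-Treg (3 libraries), for Tregs treated with lenvatinib by the series title, an inhibitor of several receptor tyrosine kinases, and the other is labelled Ctrl-Treg, for control Tregs (3 libraries). Not given in the sources used here were strain, sex, age, the way the disease was induced, and the dose and timing of the transferred cells. Nothing states that libraries of a group are from different mice, and p-values therefore reflect the spread between these samples, which may be technical. The study concerns the anti-inflammatory action of such Tregs, and the comparison asks how innate sensors differed in the skin that received them. Expression values cannot show which Tregs were transferred, and the group labels were taken as given. The title calls lenvatinib-treated Tregs the more anti-inflammatory, whereas inflammatory genes such as Il1b and the neutrophil markers were higher in the libraries labelled Lenv-Treg, and every direction given here rests on those labels.

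Toll-like receptors (TLRs) bind microbial lipids, proteins and nucleic acids at the cell surface or in endosomes and signal through the adaptors MyD88 and TRIF. C-type lectin receptors recognise fungal and mycobacterial sugars and glycolipids, and formyl peptide receptors guide neutrophils and monocytes to bacterial and mitochondrial peptides. In the cytosol, NOD proteins sense peptidoglycan, while NLRP3, NLRC4 with its NAIP partners, NLRP1 and AIM2 can assemble inflammasomes. These complexes use the adaptor ASC (Pycard) to activate caspase-1, which matures IL-1β and IL-18 and cuts gasdermin D into a pore-forming fragment. Keratinocytes, resident macrophages and incoming myeloid cells of skin each express part of this repertoire.

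Expression was measured by RNA-seq as FPKM, fragments scaled to gene length and to the number of assigned fragments, which allows levels to be set side by side between genes. Depth was 38704536 to 40248462 assigned reads per library, as recovered from the steps between low values. A gene was tested if it reached 0.5 FPKM in at least 3 of the 6 libraries, which 35 of the 37 members and 13945 genes in all did. Each difference was taken as the Lenv-Treg mean less the Ctrl-Treg mean of log2(FPKM + 1), a scale that understates changes of genes with low values. It comes with its standard error (SE) and the Benjamini-Hochberg adjusted p of limma over all 13945 genes, called at 0.05. A fold is the ratio of mean FPKM in Lenv-Treg to that in Ctrl-Treg. The skin marker Krt14, a keratin of basal keratinocytes, was at 4428 ± 139 FPKM in Lenv-Treg and 769 ± 156 FPKM in Ctrl-Treg (SD, n = 3 each, as for every mean ± SD here).

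Most of these genes were higher in Lenv-Treg skin. Of the 35 tested members, 23 rose (65.7%) and 1, Nlrp10, fell, against 11% of all tested genes that rose and 30.8% that fell (41.7% in either direction). The median difference of the tested members was 0.57, and that of all tested genes was -0.17. Rescaling the libraries to equal medians of ratios shifted the median of all genes to -0.00 and that of the members to 0.75, with 24 members higher and 1 lower. Rescaling to TPM shifted them to -0.44 and 0.48, with 18 members higher and 3 lower. The groups did not overlap for 23 tested members with Lenv-Treg above and 2 with Lenv-Treg below, where 14.4% and 41% of all tested genes behaved so. Of the members that rose, 17 were at least 2-fold and 7 at least 4-fold higher, which was not counted for all tested genes. These 7 include Clec4e and Nlrp3, which met the filter through their Lenv-Treg libraries alone. In bulk tissue, more cells of a type and more RNA per cell cannot be told apart.

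**Figure D1:**
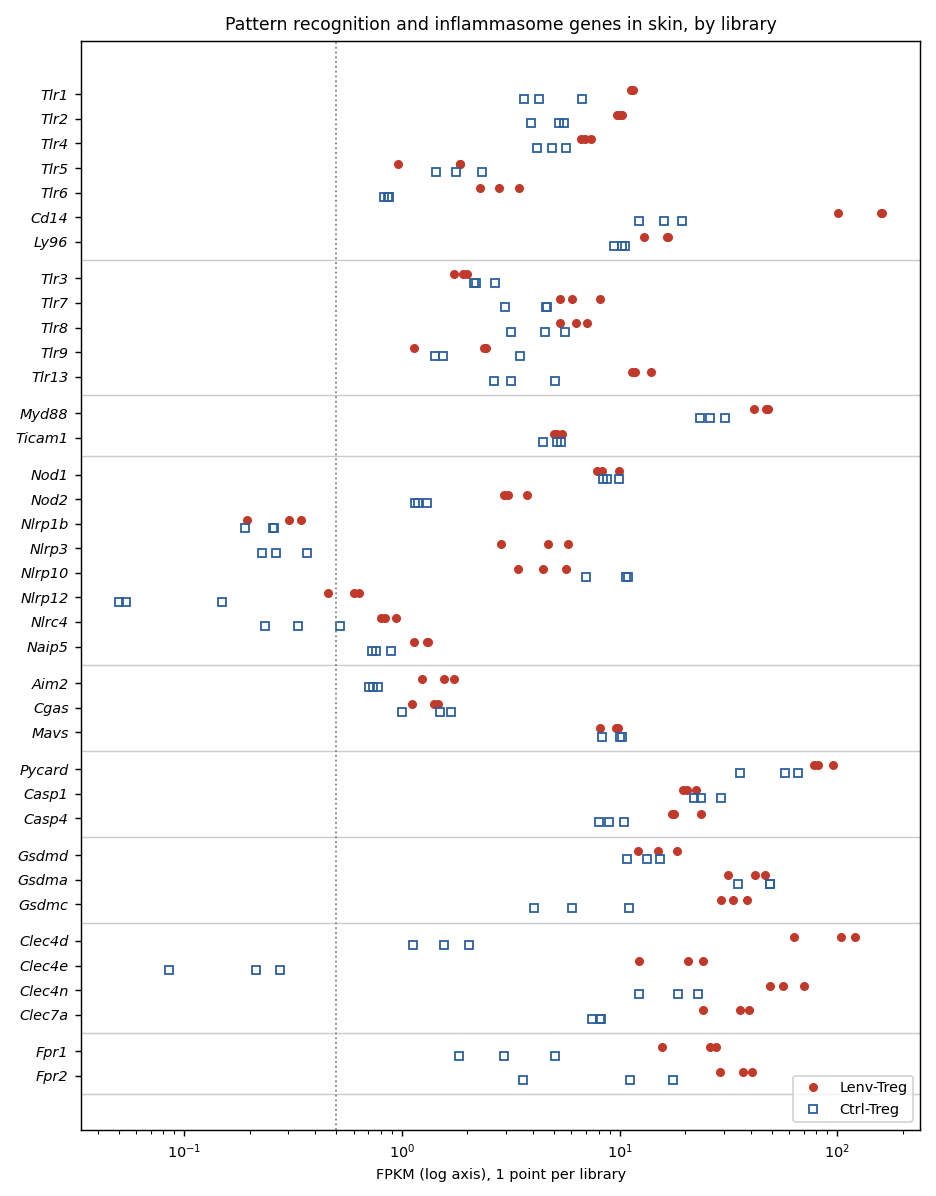
FPKM of all 37 members in each of the 6 libraries, on a log axis, grouped by role from surface TLRs (top) to formyl peptide receptors (bottom). Filled circles are Lenv-Treg and open squares Ctrl-Treg libraries, and the dotted line marks the filter of 0.5 FPKM. Clec4d and Clec4e show the widest gap between groups, and Nlrp10 lies lower in every Lenv-Treg library.

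The order of the members by level differed between the groups. Cd14, Clec4d and Pycard were the 3 most abundant members in Lenv-Treg, at 139.9 ± 34.4, 96.0 ± 29.7 and 84.7 ± 9.1 FPKM. In Ctrl-Treg these were Pycard, Gsdma and Myd88, at 53.1 ± 15.6, 44.4 ± 8.06 and 26.6 ± 3.72 FPKM. Clec4d ranked 2 of 37 in Lenv-Treg and 27 of 37 in Ctrl-Treg, and Clec4e ranked 13 and 36. All 37 members together summed to 675.0 to 838.3 FPKM per library in Lenv-Treg and 259.8 to 364.3 FPKM in Ctrl-Treg.

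Markers of neutrophils and macrophages moved with these genes. Of 14 tested neutrophil markers, 13 rose (92.9%, against 11% of all tested genes). The list of 18 summed to between 38208 and 53964 FPKM in Lenv-Treg and between 80.3 and 230.9 FPKM in Ctrl-Treg. S100a8 and S100a9, which activated keratinocytes also express, made up nearly all of that sum in Lenv-Treg, and without them it was 340.3 to 643.8 FPKM in Lenv-Treg and 36.4 to 49.7 FPKM in Ctrl-Treg. Ly6g, a surface marker of mouse neutrophils, was at 4.22 ± 1.23 FPKM in Lenv-Treg and 0.0632 ± 0.0312 FPKM in Ctrl-Treg, from 473 and 7 reads over the groups. Ly6g met the filter through its Lenv-Treg libraries alone. Markers this low in Ctrl-Treg could enter the tested set only where Lenv-Treg was high. Mrgpra2b, also on the list, was listed at 0 in all 3 Ctrl-Treg libraries. Of 17 monocyte and macrophage markers, 10 rose (58.8%) and 1 fell (5.88%), with sums of 4091 to 4545 FPKM in Lenv-Treg and 2508 to 3187 FPKM in Ctrl-Treg. Of 10 tested dendritic and Langerhans cell markers, 1 rose (10%) and 4 fell (40%), near the 11% and 30.8% of all tested genes. Their sums were 145.9 to 178.7 FPKM in Lenv-Treg and 130.6 to 144.1 FPKM in Ctrl-Treg. Of 4 pan-leukocyte genes, 1 rose, or 3 after scaling to equal medians of ratios, with sums of 268.3 to 306.3 FPKM in Lenv-Treg and 163.0 to 252.6 FPKM in Ctrl-Treg. The gene that rose was Laptm5 (0.66, SE 0.14, adjusted p = 0.00961), a call lost under TPM scaling (0.38, adjusted p = 0.0598), while Ptprc, which encodes CD45, did not pass (0.36, SE 0.15, adjusted p = 0.0884). Hair follicle markers, 7 of 7, fell in the same comparison, with sums of 2.12 to 17.7 FPKM in Lenv-Treg and 1373 to 2986 FPKM in Ctrl-Treg. The part of these cell types in the differences below was not tested.

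Libraries within a group were not equal in this respect. Among the 23 members that rose, Lenv-Treg replicate 1 held the lowest value of its group for 13, and Ctrl-Treg replicate 1 held the highest of its group for 18. The same Lenv-Treg library was lowest for 13 of the 13 neutrophil markers that rose, and the same Ctrl-Treg library was highest for 11 of them. These ranks were not counted over all tested genes. Without Lenv-Treg replicate 1 the count of members that rose was 19, and without Ctrl-Treg replicate 1 it was 22. Dropping any other single library gave 19 to 21.

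By role group, the C-type lectin receptors had the largest median difference (2.96), with Clec4d and Clec4e ahead of all other members. Clec4n and Clec7a differed less than Cd14, Fpr1, Gsdmc and Nlrp3. Clec4d (MCL, a receptor for mycobacterial cord factor) was at 63.2, 121 and 103.7 FPKM in the Lenv-Treg libraries, against 2.03, 1.57 and 1.12 FPKM in the Ctrl-Treg libraries. Clec4e (Mincle, its partner at the cell surface and a sensor of the same glycolipid and of dying cells) was at 12.3, 24.1 and 20.5 FPKM in Lenv-Treg, against 0.214, 0.0847 and 0.274 FPKM in Ctrl-Treg. For both genes even the lowest Lenv-Treg library was far above the highest Ctrl-Treg library. Clec4d was 61-fold higher (difference 5.20, SE 0.24, adjusted p = 2.73e-05) and Clec4e 99.4-fold higher (4.02, SE 0.22, adjusted p = 4.05e-05). Clec4e met the filter through its Lenv-Treg libraries alone, and with every gene kept its adjusted p was 0.000989. In Ctrl-Treg the 3 libraries together held 249 reads of Clec4d and 68 reads of Clec4e, against 15367 and 6864 reads in Lenv-Treg.

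Clec4n (Dectin-2, a receptor for fungal mannans) was at 49.2, 56.2 and 70.1 FPKM in Lenv-Treg, against 22.9, 12.2 and 18.6 FPKM in Ctrl-Treg. Clec7a (Dectin-1, the receptor for fungal β-glucan) was at 24.2, 35.6 and 39.3 FPKM in Lenv-Treg, against 8.23, 7.45 and 8.15 FPKM in Ctrl-Treg. Neither gene's groups overlapped. Clec4n was 3.27-fold higher (1.68, SE 0.23, adjusted p = 0.00125) and Clec7a 4.16-fold higher (1.90, SE 0.17, adjusted p = 0.000236). With these unequal folds the balance among the receptors differed too. Clec4n was at 0.464 to 0.780 times the FPKM of Clec4d in Lenv-Treg libraries and at 7.80 to 16.6 times in Ctrl-Treg libraries. Clec4d, Clec4e and Clec4n are neighbours on mouse chromosome 6.

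The sequence around the transcription start is shown for Clec4d and Clec4e, whose differences were the largest, and for Nlrp3 and Tlr2, which hold a κB motif there. Each run is 300 bases, 250 before the start and 50 after it, 5′ to 3′ on the gene's strand, from RefSeq's GRCm38.p6, which is another build than the one the submitters' notes name. Capitals mark matches of the κB consensus (GGG, a purine, any 2 bases, 2 pyrimidines, CC) or of the interferon-stimulated response element (TTTC, any 2 bases, TTTC), read on both strands. The Clec4d run (chr6:123261857-123262156, plus strand) holds the latter, Clec4e (chr6:123289822-123290121, minus strand) holds neither, and Nlrp3 (chr11:59541319-59541618, plus strand, 1 of its 2 promoters) and Tlr2 (chr3:83841559-83841858, minus strand) hold the κB consensus.
Clec4d: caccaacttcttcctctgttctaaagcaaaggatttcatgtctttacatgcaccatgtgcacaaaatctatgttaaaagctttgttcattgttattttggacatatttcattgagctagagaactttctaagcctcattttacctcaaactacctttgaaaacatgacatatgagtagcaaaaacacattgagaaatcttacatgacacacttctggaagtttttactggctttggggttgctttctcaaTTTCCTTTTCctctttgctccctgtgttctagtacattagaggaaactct
Clec4e: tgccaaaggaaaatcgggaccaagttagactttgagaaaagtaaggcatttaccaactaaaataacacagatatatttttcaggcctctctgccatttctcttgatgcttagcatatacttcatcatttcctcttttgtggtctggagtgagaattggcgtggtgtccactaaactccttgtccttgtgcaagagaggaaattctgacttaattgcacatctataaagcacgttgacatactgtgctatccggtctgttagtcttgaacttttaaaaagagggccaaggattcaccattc
Nlrp3: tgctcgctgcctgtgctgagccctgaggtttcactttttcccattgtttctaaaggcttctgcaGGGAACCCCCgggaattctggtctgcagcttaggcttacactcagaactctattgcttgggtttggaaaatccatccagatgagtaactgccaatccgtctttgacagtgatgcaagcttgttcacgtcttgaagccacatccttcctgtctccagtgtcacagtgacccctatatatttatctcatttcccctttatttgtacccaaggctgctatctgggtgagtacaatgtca
Tlr2: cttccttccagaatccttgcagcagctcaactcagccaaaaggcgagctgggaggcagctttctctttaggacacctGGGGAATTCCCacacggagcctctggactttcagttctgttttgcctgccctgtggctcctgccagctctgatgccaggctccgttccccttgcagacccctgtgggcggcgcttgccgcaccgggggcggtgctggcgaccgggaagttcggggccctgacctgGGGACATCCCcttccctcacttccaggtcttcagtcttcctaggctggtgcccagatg

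Promoters were given for 28 of the 37 members. The κB consensus was found for 5 of these 28 genes (17.9%: Casp4, Naip5, Nlrp3, Tlr2 and Tlr3) and for 9.88% of the 25199 genes of the table with a promoter. The interferon-stimulated response element was found for 3 (10.7%: Clec4d, Myd88 and Tlr6) and for 3.92% of all genes. These matches describe the letters in the windows and were not tested.

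Both formyl peptide receptors rose. Fpr1, the main neutrophil receptor for bacterial formyl peptides, was at 15.7, 27.6 and 25.9 FPKM in Lenv-Treg, against 5.03, 1.83 and 2.93 FPKM in Ctrl-Treg (7.06-fold, difference 2.53, SE 0.30, adjusted p = 0.000778). Fpr2, which also binds host peptides and lipid mediators, was at 28.8, 36.8 and 40.5 FPKM in Lenv-Treg, against 17.6, 3.61 and 11.2 FPKM in Ctrl-Treg. The groups did not overlap for either gene, although Ctrl-Treg replicate 1 stood highest for both and the Ctrl-Treg libraries of Fpr2 spread widely. Fpr2 was 3.28-fold higher (1.83, SE 0.46, adjusted p = 0.0162), but this no longer passed without Lenv-Treg replicate 2 (adjusted p = 0.0527), without Lenv-Treg replicate 3 (adjusted p = 0.056) and with no filter on low values (adjusted p = 0.0553). Reads of Fpr2 could be shared with close copies of the family, of which Fpr3, Fpr-rs3, Fpr-rs4, Fpr-rs6 and Fpr-rs7 were listed at 0 in all 6 libraries.

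**Figure D2:**
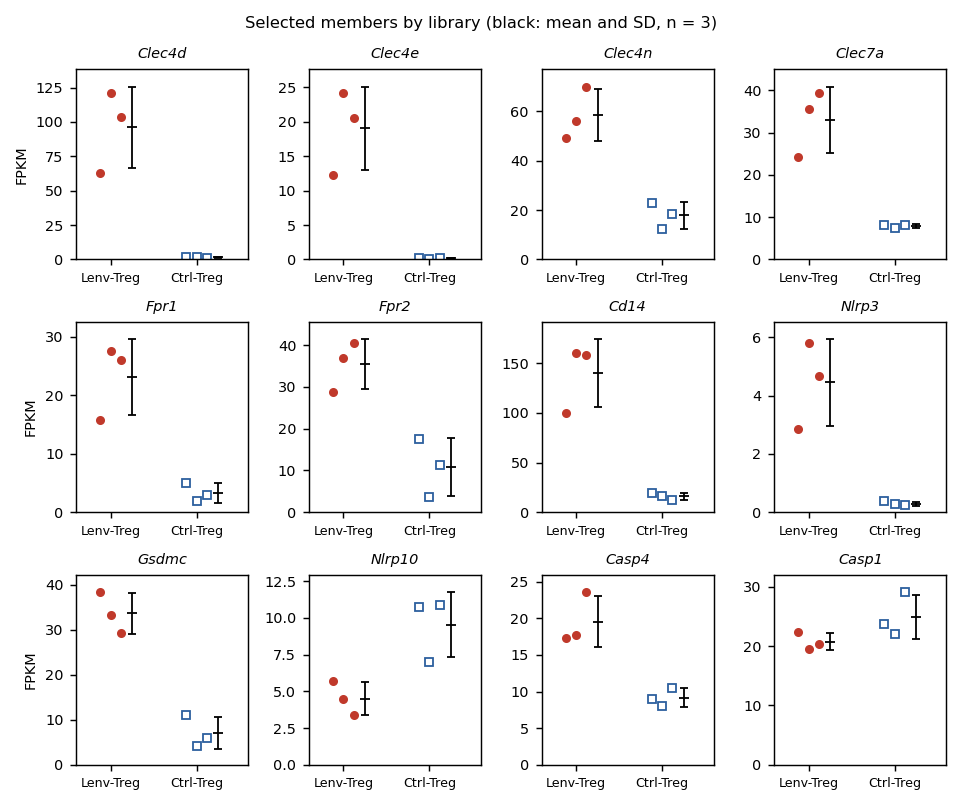
FPKM of 12 members by library, each panel on its own linear axis from 0, with Lenv-Treg (filled circles) left of Ctrl-Treg (open squares) and the mean with SD (n = 3) in black. Groups do not overlap in 11 panels; for Casp1 they do.

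Among surface TLRs and their co-receptors, 6 of 7 members rose, with Cd14 far ahead of the receptors it serves. Cd14, which hands bacterial lipopolysaccharide to TLR4 and lipopeptides to TLR2, was at 100.2, 160.8 and 158.6 FPKM in Lenv-Treg, against 19.4, 16.0 and 12.3 FPKM in Ctrl-Treg (8.81-fold, 3.05, SE 0.22, adjusted p = 0.000117). Tlr4 was at 7.36, 6.97 and 6.66 FPKM in Lenv-Treg, against 5.68, 4.88 and 4.17 FPKM in Ctrl-Treg (1.43-fold, 0.44, SE 0.11, adjusted p = 0.0187). Every Lenv-Treg library was above every Ctrl-Treg library for both genes, and Cd14 was at 13.6 to 23.8 times the FPKM of Tlr4 in Lenv-Treg and at 2.95 to 3.42 times in Ctrl-Treg. Ly96 (MD-2, the lipopolysaccharide-binding subunit of the TLR4 complex) was at 16.5, 13.0 and 16.7 FPKM in Lenv-Treg, against 10.2, 10.5 and 9.47 FPKM in Ctrl-Treg (1.53-fold, 0.56, SE 0.12, adjusted p = 0.00802). After rescaling to TPM the calls of Tlr4 (0.21, adjusted p = 0.263) and Ly96 (0.30, adjusted p = 0.0895) ended, and that of Tlr4 also ended without Lenv-Treg replicate 1 or 2 or Ctrl-Treg replicate 3 (adjusted p up to 0.0592).

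TLR2 recognises bacterial lipopeptides as a pair with TLR1 or TLR6. Tlr2 was at 10.0, 9.73 and 10.2 FPKM in Lenv-Treg, against 5.54, 5.27 and 3.93 FPKM in Ctrl-Treg (2.04-fold, 0.91, SE 0.12, adjusted p = 0.00128). Tlr1 was at 11.2, 11.5 and 11.4 FPKM in Lenv-Treg, against 6.70, 3.65 and 4.25 FPKM in Ctrl-Treg (2.34-fold, 1.11, SE 0.18, adjusted p = 0.00264). Tlr6 was at 2.29, 3.46 and 2.80 FPKM in Lenv-Treg, against 0.870, 0.866 and 0.830 FPKM in Ctrl-Treg (3.33-fold, 1.04, SE 0.12, adjusted p = 0.000699). None of these groups overlapped, the 3 Lenv-Treg libraries agreed closely for Tlr1 and Tlr2, and Tlr1 and Tlr6 are adjacent genes on chromosome 5. Tlr5, the flagellin receptor, was at 1.56 ± 0.513 FPKM in Lenv-Treg and 1.85 ± 0.457 FPKM in Ctrl-Treg, with overlapping groups (-0.17, 95% interval -0.59 to 0.26, adjusted p = 0.483).

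The endosomal TLRs, which sense nucleic acids, were mixed. Tlr13, a receptor for bacterial ribosomal RNA that mice have and humans lack, was at 11.7, 13.9 and 11.4 FPKM in Lenv-Treg, against 5.03, 2.65 and 3.18 FPKM in Ctrl-Treg (3.40-fold, 1.56, SE 0.19, adjusted p = 0.000778). Its groups were well apart. Tlr7, a sensor of single-stranded RNA, was at 8.12, 6.04 and 5.35 FPKM in Lenv-Treg, against 4.62, 4.60 and 2.97 FPKM in Ctrl-Treg (1.60-fold, 0.57, SE 0.19, adjusted p = 0.0426). The Tlr7 call was fragile: it ended when any 1 of 5 libraries was dropped (adjusted p up to 0.111), with no filter on low values (adjusted p = 0.101) and after rescaling to TPM (0.36, adjusted p = 0.223). Its neighbour Tlr8 was at 6.25 ± 0.881 FPKM in Lenv-Treg and 4.45 ± 1.23 FPKM in Ctrl-Treg, with overlapping groups (0.43, 95% interval 0.01 to 0.85, adjusted p = 0.0902), and it passed after scaling to equal medians of ratios (0.61, adjusted p = 0.0365), after quantile normalization (0.65, adjusted p = 0.0282) and without Ctrl-Treg replicate 1 (0.59, adjusted p = 0.0346).

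Tlr3, a sensor of double-stranded RNA that keratinocytes also use, was at 2.00, 1.74 and 1.91 FPKM in Lenv-Treg, against 2.67, 2.18 and 2.15 FPKM in Ctrl-Treg. Every Lenv-Treg library lay below every Ctrl-Treg library, but the difference did not pass (-0.21, 95% interval -0.44 to 0.02, adjusted p = 0.131), except after rescaling to TPM (-0.48, adjusted p = 0.0211). Tlr9, a sensor of unmethylated CpG DNA, was at 1.98 ± 0.734 FPKM in Lenv-Treg and 2.15 ± 1.17 FPKM in Ctrl-Treg, and its ratio of 0.923 turned to 1.34 without Ctrl-Treg replicate 1 and to 1.12 without Lenv-Treg replicate 3 (difference -0.05, 95% interval -0.70 to 0.60, adjusted p = 0.898).

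The adaptors differed from each other. Myd88, used by every TLR other than TLR3 and by the IL-1 receptor family, was at 41.2, 47.1 and 47.8 FPKM in Lenv-Treg, against 30.6, 23.3 and 26.0 FPKM in Ctrl-Treg (1.70-fold, 0.75, SE 0.12, adjusted p = 0.0028). Ticam1, which encodes TRIF, the adaptor of TLR3 and of endosomal TLR4, was at 4.98, 5.43 and 5.15 FPKM in Lenv-Treg, against 5.36, 5.13 and 4.46 FPKM in Ctrl-Treg. The Myd88 groups did not overlap, while those of Ticam1 did, with a difference of 0.05 and a 95% interval of -0.17 to 0.28 (adjusted p = 0.7).

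Of the cytosolic NOD and NLR sensors, 4 of the 6 tested members rose and 1 fell. Nlrp3, the sensor of ion efflux and membrane damage whose transcript is known to be induced during priming, was at 2.87, 5.80 and 4.69 FPKM in Lenv-Treg, against 0.366, 0.263 and 0.228 FPKM in Ctrl-Treg (15.6-fold, 2.05, SE 0.20, adjusted p = 0.000297). Nlrp3 met the filter through its Lenv-Treg libraries alone, and with every gene kept its adjusted p was 0.00341. The lowest Lenv-Treg library was several times the highest Ctrl-Treg library, and the Ctrl-Treg level rested on 138 reads over the group, against 2176 in Lenv-Treg. Nod2, a sensor of muramyl dipeptide, was at 2.95, 3.06 and 3.77 FPKM in Lenv-Treg, against 1.19, 1.31 and 1.14 FPKM in Ctrl-Treg (2.68-fold, 0.94, SE 0.10, adjusted p = 0.000525). Nod1, a sensor of a peptidoglycan fragment typical of Gram-negative bacteria and expressed by many epithelia, was at 9.88, 7.84 and 8.32 FPKM in Lenv-Treg, against 9.94, 8.77 and 8.42 FPKM in Ctrl-Treg. Nod2 groups were separate and Nod1 groups overlapped, with a Nod1 difference of -0.06 and a 95% interval of -0.32 to 0.21 (adjusted p = 0.716).

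Nlrc4, which assembles an inflammasome for flagellin and type III secretion proteins, was at 0.836, 0.939 and 0.801 FPKM in Lenv-Treg, against 0.518, 0.235 and 0.332 FPKM in Ctrl-Treg (2.38-fold, 0.45, SE 0.10, adjusted p = 0.0107). Naip5, which binds flagellin for NLRC4, was at 1.30, 1.14 and 1.32 FPKM in Lenv-Treg, against 0.891, 0.762 and 0.728 FPKM in Ctrl-Treg (1.58-fold, 0.33, SE 0.09, adjusted p = 0.0202). Neither gene's groups overlapped, but both were low. Nlrc4 met the filter in 1 Ctrl-Treg library, and with every gene kept its adjusted p was 0.018. The Naip5 call ended under TPM scaling (0.24, adjusted p = 0.132) and when any 1 of 4 libraries was dropped (largest adjusted p 0.0631). Naip genes are close copies of each other, so reads may have been shared between them. Nlrp12 and Nlrp1b fell outside the filter. Nlrp12, an NLR of neutrophils and other myeloid cells, was at 0.456, 0.638 and 0.599 FPKM in Lenv-Treg, against 0.150, 0.0543 and 0.0503 FPKM in Ctrl-Treg, from 382 and 57 reads. Its groups did not overlap (exact permutation p = 0.1, two-sided, the smallest that 3 against 3 libraries allow), and its fold of 6.66 was 10.8 without Ctrl-Treg replicate 1. With every gene kept, limma called it higher (0.53, adjusted p = 0.004). Nlrp1b, a sensor of bacterial proteases with a close copy in Nlrp1a, was at 0.279 ± 0.0767 FPKM in Lenv-Treg and 0.235 ± 0.0382 FPKM in Ctrl-Treg (SD, n = 3 each), with overlapping groups (exact permutation p = 0.4).

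Nlrp10 was the member that fell. This NLR without a leucine-rich repeat is expressed by keratinocytes, and it was at 5.67, 4.44 and 3.40 FPKM in Lenv-Treg, against 10.8, 6.97 and 10.9 FPKM in Ctrl-Treg. All Lenv-Treg libraries lay below all Ctrl-Treg libraries (0.472 times the Ctrl-Treg mean, -0.93, SE 0.20, adjusted p = 0.00971), and the call held under all 17 alternatives. Of the 10 markers of basal and differentiated keratinocytes, 2 rose (20%, Krt5 and Krt14) and 3 fell (30%, Lor, Flg and Krt10). These shares compare with 11% and 30.8% of all tested genes, and the median difference of the list was -0.09. Its sums were 7412 to 9383 FPKM in Lenv-Treg and 3274 to 5044 FPKM in Ctrl-Treg. Krt14, whose levels are given above, made up most of the gap between the group means of these sums. Lor, which encodes the cornified envelope protein loricrin, fell (-2.07, SE 0.39, adjusted p = 0.00545), at 139 ± 89.1 FPKM in Lenv-Treg and 524 ± 99.5 FPKM in Ctrl-Treg. Flg, which encodes filaggrin, fell by 1.47 (adjusted p = 0.0148), at 21.5 ± 13.4 FPKM in Lenv-Treg and 55.4 ± 8.95 FPKM in Ctrl-Treg, and was no longer called when Lenv-Treg replicate 2 or 3 was dropped (adjusted p up to 0.0551) or with no filter (adjusted p = 0.0505). Krt10, a keratin of the layers above the basal one, was at 179.7 ± 114 FPKM in Lenv-Treg and 390.0 ± 101.1 FPKM in Ctrl-Treg (SE of the difference 0.41, adjusted p = 0.0419), a call lost when any 1 of 4 libraries was dropped (largest adjusted p 0.134), with no filter (adjusted p = 0.108) and under median-of-ratios scaling (adjusted p = 0.0849). The part of these markers in the Nlrp10 difference was not tested.

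**Figure D3:**
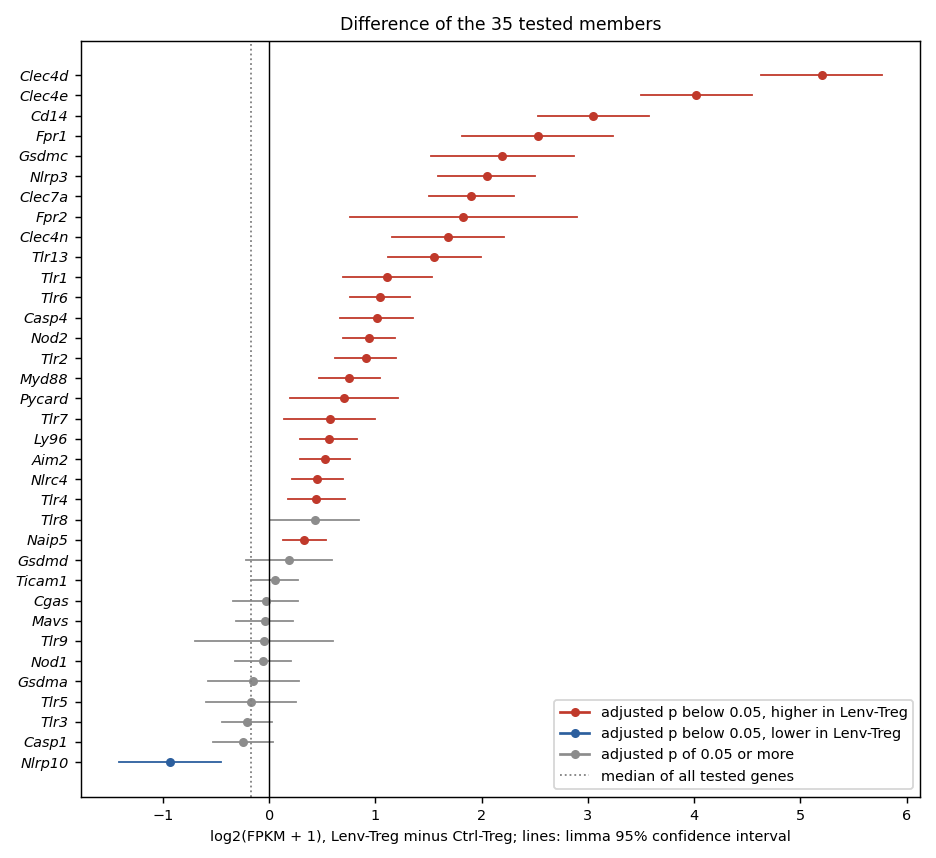
Difference on the log2(FPKM + 1) scale, Lenv-Treg minus Ctrl-Treg, for the 35 tested members in order of size, with limma's 95% confidence interval. Red marks the 23 members that rose, blue the 1 that fell and grey the 11 that did not pass, and the dotted line is the median of all tested genes, -0.17.

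Of the cytosolic nucleic acid sensors, Aim2 rose. Aim2, which assembles an inflammasome on double-stranded DNA, was at 1.56, 1.24 and 1.73 FPKM in Lenv-Treg, against 0.776, 0.704 and 0.733 FPKM in Ctrl-Treg (2.05-fold, 0.53, SE 0.10, adjusted p = 0.00544). Its groups did not overlap. Cgas, which makes the second messenger that activates STING, was at 1.33 ± 0.193 FPKM in Lenv-Treg and 1.40 ± 0.350 FPKM in Ctrl-Treg (-0.03, 95% interval -0.34 to 0.27, adjusted p = 0.852). Mavs, the mitochondrial adaptor of the RNA helicase sensors, was at 9.66, 9.82 and 8.15 FPKM in Lenv-Treg, against 10.3, 10.0 and 8.30 FPKM in Ctrl-Treg. For Cgas and Mavs the groups overlapped, and the interval of Mavs, -0.31 to 0.23, covers zero (adjusted p = 0.794).

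The inflammasome core split between its genes. Pycard was at 81.2, 77.9 and 95.1 FPKM in Lenv-Treg, against 57.4, 35.9 and 66.1 FPKM in Ctrl-Treg (1.59-fold, 0.70, SE 0.22, adjusted p = 0.0362). Its groups did not overlap, but the call ended when any 1 of 4 libraries was dropped (adjusted p up to 0.108), with no filter on low values (adjusted p = 0.088) and after rescaling to TPM (0.42, adjusted p = 0.0894). Casp1, the caspase that matures IL-1β, was at 22.4, 19.5 and 20.3 FPKM in Lenv-Treg, against 23.7, 22.0 and 29.1 FPKM in Ctrl-Treg. Casp4 (mouse caspase-11, which binds intracellular lipopolysaccharide), its neighbour on chromosome 9, was at 17.3, 17.7 and 23.6 FPKM in Lenv-Treg, against 8.91, 8.03 and 10.5 FPKM in Ctrl-Treg (2.14-fold, 1.01, SE 0.15, adjusted p = 0.00171). The Casp1 groups overlapped, with a difference of -0.25 and a 95% interval of -0.53 to 0.04 (adjusted p = 0.141), and Casp1 passed as lower after rescaling to TPM (-0.53, adjusted p = 0.00794). Casp1 was at 0.860 to 1.29 times the FPKM of Casp4 in Lenv-Treg and at 2.66 to 2.77 times in Ctrl-Treg.

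Gasdermins form the membrane pores of pyroptosis. Gsdmc was at 38.4, 33.3 and 29.4 FPKM in Lenv-Treg, against 11.0, 4.06 and 6.02 FPKM in Ctrl-Treg (4.79-fold, 2.19, SE 0.29, adjusted p = 0.00112). Gsdmd, the substrate of caspase-1 and caspase-11, was at 12.1, 15.0 and 18.4 FPKM in Lenv-Treg, against 13.4, 10.8 and 15.3 FPKM in Ctrl-Treg. The Gsdmc libraries were well apart, whereas those of Gsdmd interleaved (0.19, 95% interval -0.22 to 0.59, adjusted p = 0.412). Gsdma, a gasdermin of differentiated skin epithelium, was at 46.6, 41.9 and 31.4 FPKM in Lenv-Treg, against 48.9, 35.1 and 49.1 FPKM in Ctrl-Treg, and its groups overlapped too (-0.15, 95% interval -0.58 to 0.28, adjusted p = 0.544). Gsdmc and Gsdma each have close copies in mice, so reads may have been shared. Among those copies Gsdmc2 rose (0.90, SE 0.12, adjusted p = 0.00131), at 1.01 ± 0.270 FPKM in Lenv-Treg and 0.0786 ± 0.0998 FPKM in Ctrl-Treg, 12.9-fold, or 48.1-fold when Ctrl-Treg replicate 1 was dropped. Gsdmc2 met the filter through its Lenv-Treg libraries alone. Gsdma3 fell (-0.87, SE 0.29, adjusted p = 0.0468), at 1.11 ± 0.780 FPKM in Lenv-Treg and 2.81 ± 1.14 FPKM in Ctrl-Treg, with overlapping groups, and it was no longer called when any 1 of 4 libraries was dropped (adjusted p up to 0.145) or after scaling to equal medians of ratios (adjusted p = 0.091), quantile normalization (0.156 as adjusted p) or no filter (0.12). These copies were named after their values had been seen. Markers of activated keratinocytes rose in the same libraries, 7 of 8 (87.5%, against 11% of all tested genes). Their sums were 8825 to 13249 FPKM in Lenv-Treg and 504.9 to 822.1 FPKM in Ctrl-Treg, and their part in the Gsdmc difference was not tested.

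The other genes of these pathways were divided into 6 lists, 161 names in all, of which 138 genes were tested. There 46 rose (33.3%) and 30 fell (21.7%), against 11% and 30.8% of all tested genes, and the median difference was 0.12. This balance depended on scaling, with 58 higher and 15 lower after scaling to equal medians of ratios, 52 and 16 after quantile normalization, and 36 and 49 after rescaling to TPM.

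**Figure D4:**
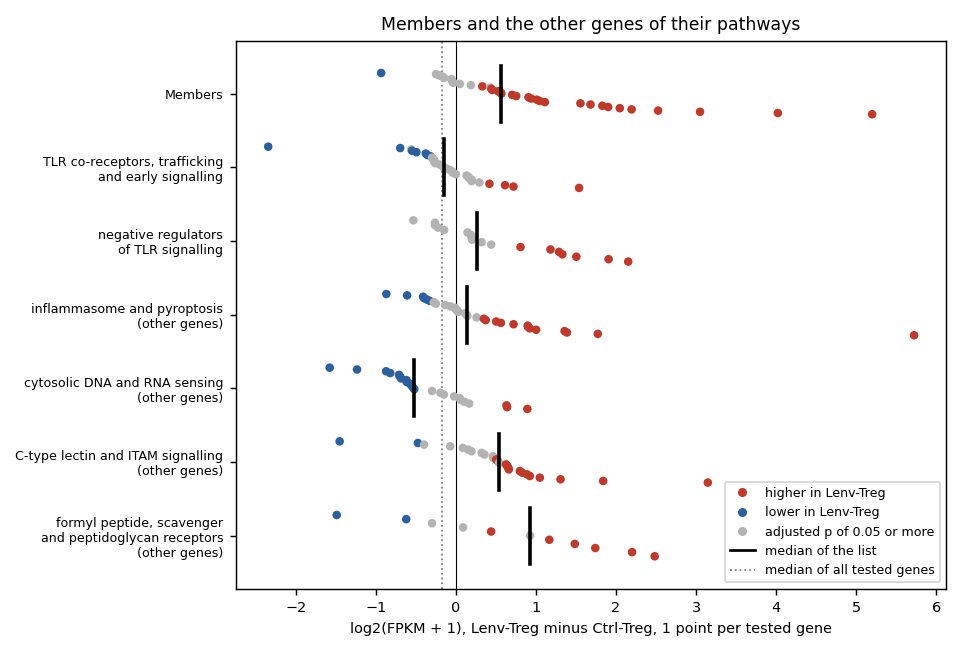
Difference on the log2(FPKM + 1) scale, Lenv-Treg minus Ctrl-Treg, for each tested member (top row) and each tested gene of the 6 pathway lists, with the median of each list as a black bar and the median of all tested genes as a dotted line. The member row lies mostly to the right of zero, and cytosolic DNA and RNA sensing is the row with its median farthest to the left, -0.53.

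Beyond the receptors, the counts for the early TLR signalling list lay near those of all genes. Of its 31 tested genes, 4 rose (12.9%, against 11% of all genes) and 7 fell (22.6%, against 30.8%), with a median of -0.15, against -0.17 for all genes, and scaling turned the balance (6 higher and 3 lower after scaling to equal medians of ratios, 3 and 17 after rescaling to TPM). Lbp, the serum protein that loads lipopolysaccharide onto CD14, rose 2.86-fold to 89.5 ± 11.7 FPKM in Lenv-Treg, against 31.3 ± 11.2 FPKM in Ctrl-Treg (1.54, SE 0.24, adjusted p = 0.00248). Irak2, a kinase of the MyD88 complex, rose by 0.72 (adjusted p = 0.00229). Irf7, which drives interferon production downstream of endosomal TLRs, was at 11.2 ± 0.493 FPKM in Lenv-Treg and 63.2 ± 20.4 FPKM in Ctrl-Treg (-2.35, SE 0.21, adjusted p = 0.000238). Tlr11, a mouse receptor for profilin of protozoa, also fell (-0.70, adjusted p = 0.00187), at 0.169 ± 0.011 FPKM in Lenv-Treg and 0.903 ± 0.226 FPKM in Ctrl-Treg. Tlr11 met the filter through its Ctrl-Treg libraries alone, and its levels rested on 65 reads in Lenv-Treg and 343 in Ctrl-Treg. The most abundant gene of the list, the chaperone gene Hsp90b1, was at 159 ± 9.76 FPKM in Lenv-Treg and 145 ± 4.82 FPKM in Ctrl-Treg (0.13, 95% interval -0.11 to 0.38, adjusted p = 0.329).

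Of 18 genes that restrain TLR signalling, 7 rose (38.9%, against 11% of all tested genes) and the other 11 did not pass, with a median of 0.26. Scaling to equal medians of ratios gave 10 higher and 0 lower, quantile normalization 9 and 0, and rescaling to TPM 7 and 4. Nfkbia, which encodes the NF-κB inhibitor IκBα, was at 141 ± 28.4 FPKM in Lenv-Treg and 48.7 ± 4.97 FPKM in Ctrl-Treg (2.90-fold, SE of the difference 0.16, adjusted p = 0.000424). Tyro3, a receptor kinase that dampens TLR responses, rose 2.71-fold (1.29, SE 0.12, adjusted p = 0.000288), and Dusp1, a phosphatase of MAP kinases, 2.52-fold (1.33, SE 0.20, adjusted p = 0.00218).

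In the wider inflammasome and pyroptosis list, 13 of 31 tested genes rose (41.9%, against 11% of all tested genes) and 6 fell (19.4%, against 30.8%). The counts were 15 and 0 after scaling to equal medians of ratios and 9 and 8 after rescaling to TPM. Il1b and Il18, whose products caspase-1 matures, moved in opposite directions, although the Il18 call was fragile. Il1b was at 313.2 ± 105.2 FPKM in Lenv-Treg and 4.78 ± 1.39 FPKM in Ctrl-Treg (5.72, SE 0.29, adjusted p = 3.06e-05), so that it reached 8.57 to 19.2 times the FPKM of Casp1 in Lenv-Treg libraries and 0.126 to 0.268 times in Ctrl-Treg libraries. Il18, which keratinocytes hold constitutively, was at 14.1 ± 3.09 FPKM in Lenv-Treg and 21.8 ± 1.80 FPKM in Ctrl-Treg (-0.61, SE 0.15, adjusted p = 0.0153), but it did not pass after scaling to equal medians of ratios (-0.41, adjusted p = 0.0614) or when Lenv-Treg replicate 2 or 3 was dropped (adjusted p up to 0.0581). Il1rn, the antagonist of the IL-1 receptor, rose 3.56-fold (adjusted p = 0.000134). Nlrc5, a regulator of MHC class I genes, fell by 0.41 (adjusted p = 0.0181), but not under median-of-ratios scaling (adjusted p = 0.105), quantile normalization (adjusted p = 0.214) or without Lenv-Treg replicate 2 (adjusted p = 0.0649) or Ctrl-Treg replicate 1 (adjusted p = 0.0502). Txnip, an NLRP3-binding redox protein and the most abundant gene of the list, was at 258 ± 68.2 FPKM in Lenv-Treg and 235 ± 59.4 FPKM in Ctrl-Treg (0.14, 95% interval -0.41 to 0.69, adjusted p = 0.668).

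Sensors of cytosolic DNA and RNA outside the members went mostly the other way. Of 24 tested genes, 3 rose (12.5%, against 11% of all tested genes) and 13 fell (54.2%, against 30.8%), with a median of -0.53. After scaling to equal medians of ratios 3 rose and 9 fell, and after quantile normalization 4 and 7. After rescaling to TPM 2 rose and 14 fell, where 947 and 7970 of all 13945 tested genes did so. In that setting the share of this list that fell was near that of all genes. Zbp1, a sensor of Z-form nucleic acids, was at 4.76 ± 1.01 FPKM in Lenv-Treg and 16.3 ± 3.65 FPKM in Ctrl-Treg (-1.58, SE 0.19, adjusted p = 0.000817), and Mndal, a gene of the AIM2-related family, fell by 0.70 (adjusted p = 0.00109). Sting1, the adaptor that receives the signal of cGAS, rose 1.61-fold (0.64, SE 0.13, adjusted p = 0.00746), and Ifi205, another AIM2-related gene, rose 1.95-fold (adjusted p = 0.00854). Samhd1, a nucleotide hydrolase and the most abundant gene here, did not pass (-0.15, 95% interval -0.53 to 0.23, adjusted p = 0.476). AIM2-related genes are close copies, so reads may have been shared among them.

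In the C-type lectin and ITAM signalling list, 14 of 26 tested genes rose (53.8%, against 11% of all tested genes) and 2 fell (7.69%, against 30.8%). The median was 0.53, and the counts were 11 and 4 after rescaling to TPM. Trem1, an amplifier receptor of neutrophils and monocytes, was at 8.65 ± 2.81 FPKM in Lenv-Treg and 0.0536 ± 0.0253 FPKM in Ctrl-Treg, from 3737 and 23 reads (161-fold, 3.15, SE 0.22, adjusted p = 8.94e-05). Trem1 met the filter through its Lenv-Treg libraries alone, and its fold rests on the few Ctrl-Treg reads. Trem2, a lipid receptor of macrophages, rose 5.52-fold (1.84, SE 0.10, adjusted p = 3.3e-05). Clec4b1 and Colec12, lectins outside the members, fell by 1.45 (adjusted p = 0.0223) and 0.48 (adjusted p = 0.0122). Lgals3, the sugar-binding galectin-3 gene and the most abundant of the list, did not pass (0.47, 95% interval -0.01 to 0.94, adjusted p = 0.101) except after scaling to equal medians of ratios (0.68, adjusted p = 0.0452). The Clec4b1 call ended without Lenv-Treg replicate 3, Ctrl-Treg replicate 1 or Ctrl-Treg replicate 3 (adjusted p up to 0.0651) and with no filter (adjusted p = 0.0687), and that of Colec12 without Lenv-Treg replicate 2 (adjusted p = 0.0502) and after scaling to equal medians of ratios (adjusted p = 0.0927).

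Among formyl peptide, scavenger and peptidoglycan receptors outside the members, 6 of 11 tested genes rose (54.5%, against 11% of all tested genes). Another 2 fell (18.2%, against 30.8%). The median was 0.93, and the counts were 5 and 3 after rescaling to TPM. Pglyrp3, a peptidoglycan recognition protein of epithelia, was at 14.9 ± 1.09 FPKM in Lenv-Treg and 1.95 ± 0.980 FPKM in Ctrl-Treg (2.48, SE 0.22, adjusted p = 0.000209), and Msr1, a macrophage scavenger receptor, rose 4.34-fold (adjusted p = 6.01e-05). Marco, another macrophage scavenger receptor, fell to 3.18 ± 0.355 FPKM in Lenv-Treg, against 10.8 ± 1.30 FPKM in Ctrl-Treg (-1.49, SE 0.12, adjusted p = 0.00014). Hmgb1, a nuclear protein that acts as a danger signal when released, fell by 0.62 (adjusted p = 0.00495). Anxa1, a ligand of formyl peptide receptors and the most abundant of these genes, rose 1.35-fold (0.44, adjusted p = 0.0396), a fragile call that was lost on dropping any 1 of 5 libraries (largest adjusted p 0.126) and under TPM scaling (0.15, adjusted p = 0.291), quantile normalization (0.22, adjusted p = 0.166) or no filter (adjusted p = 0.0722).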

How the data were processed

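The submitters deposited 1 table of FPKM values for 35434 gene symbols in 6 libraries. The authors' steps are known only in part: per the labels' protocols, TRIzol was used to extract RNA and a VAHTS Universal V10 kit to prepare libraries, and per the submitters' processing notes the genome build was GRCm39. Aligner, counter and annotation were not given in the sources used here.

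Low FPKM values are whole multiples of 1 step per gene. Reads and relative depth were recovered from these steps (tolerance 0.005 reads plus 1.5e-07 per read). All 13945 tested genes gave whole reads, which the widening tolerance makes easier to reach at high read numbers. The implied gene length was whole for 13909 of them. Absolute depth rests on 398 genes whose reference length matched. Intervals cover the spread between libraries only.

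Groups were compared on log2(FPKM + 1) with limma 3.58.1 (R 4.3.3, mean-variance trend, no covariates), after a run on simulated data. Members and gene lists were chosen with earlier results of these data known. Every member is accounted for, and from each pathway list the genes named are the 2 with the smallest p among those called in each direction and the most abundant 1. Marker genes, Gsdmc2 and Gsdma3 were named after their values were seen. Alternatives covered pseudocount, filter, scaling, variance model, voom on the recovered reads, a replicate block, each library left out and the threshold. Promoters came from RefSeq (GRCm38.p6).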

Additional observations from a re-analysis of the deposited data

How the results depend on the processing

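Of the 24 members called, 18 kept direction and call under every one of the 17 alternatives at the threshold of 0.05 that tested them (Nlrc4 did not reach the filter of 1 FPKM and was untested there), and the other 6 (Fpr2, Ly96, Naip5, Pycard, Tlr4 and Tlr7) lost the call under at least 1. Members higher numbered between 19 and 22 and members lower 1 when each library was left out in turn, and between 18 and 24 under the other settings at the same threshold. Members lower numbered 3 after rescaling to TPM. Among all tested genes, 2417 were higher and 2417 lower after median-of-ratios scaling, 947 and 7970 after rescaling to TPM, 2304 were lower after quantile normalization, and 925 were higher and 2246 lower at a threshold of 0.01. Leaving out 1 library gave 1152 to 1447 genes higher and 2780 to 3900 lower. Pathway genes lower numbered 15 after median-of-ratios scaling, 49 after rescaling to TPM, 16 after quantile normalization and 14 at a threshold of 0.01. In leave-one-out fits pathway genes higher were 39 to 52 and lower 20 to 31. The cause of these shifts was not tested.

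Among members that did not pass, the sign turned as follows. After median-of-ratios scaling the differences were 0.0851 for Tlr9, 0.13 for Nod1, 0.0864 for Cgas, 0.15 for Mavs and 0.059 for Gsdma. After quantile normalization they were 0.10 for Tlr5, 0.0724 for Tlr3, 0.20 for Tlr9, 0.12 for Nod1, 0.24 for Cgas and 0.12 for Mavs. After rescaling to TPM they were -0.21 for Ticam1 and -0.0857 for Gsdmd. In leave-one-out fits the differences ran from -0.2746 to 0.0119 for Tlr5, -0.2121 to 0.236 for Tlr9, -0.014 to 0.095 for Ticam1, -0.1432 to 0.0074 for Nod1, -0.1572 to 0.0528 for Cgas, -0.1284 to 0.0353 for Mavs and -0.3056 to 0.011 for Gsdma.

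The replicate block used the number in the titles, which nothing in the labels ties to a shared animal or day. Deviations of same-numbered libraries correlated at 0.196, -0.0109 and 0.328, and 4 of 6 libraries correlated best with their own number. The block gave 24 members higher and 1 lower, with Tlr8 added (0.43, adjusted p = 0.0239), 48 pathway genes higher and 32 lower, and 1637 and 4270 of all genes. Depth limits Clec4e, Nlrp3 and Nlrp12 in Ctrl-Treg, at 68, 138 and 57 reads over the group.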
